A study of Mus musculus with 18 samples.

Results

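The Th2 cytokine cluster of mouse chromosome 11 (Kif3a, Il4, Il13, Rad50, Il5 and Irf1), Gata3 on chromosome 2 and Il1rl1 on chromosome 1 were described by the accessible regions that name them in an ATAC-seq table. ATAC-seq uses a transposase that cuts and tags open DNA. A region was counted for a gene when the authors' deposited annotation named that gene as overlapping it or as lying beside it. By this rule 35 of 65983 regions (0.053%) named at least 1 of the 8 genes: 22 in the chromosome 11 cluster, 6 at Gata3 and 7 at Il1rl1. The rule used gene names only.

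The libraries came from mouse CD4 T cells that were started as naive cells, stimulated through CD3 and CD28 with beads, and grown with IL2, IL12 and an antibody against IL4, a Th1 culture. The 18 samples formed 6 groups of 3. At 24 h they were Id3-KO Th1 and WT Th1, and at 72 h Id3-KO Tcmp, WT Tcmp, Id3-KO Teff and WT Teff. Id3 is an inhibitor of E proteins, and Tcmp and Teff are the submitters' labels, which are not spelled out. The sources used here do not give the Id3 allele, the strain or age of the mice, or whether replicates are separate animals.

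The table held 1 set of regions for its 6 comparisons of groups and no value for a single sample, so library depth is unknown and no replicate error can be given. A region shows that windows there were kept in the table. It does not show in which of the 6 groups the DNA was open, because every contrast lists the same 65983 regions. The deposited fold changes and p-values follow the order of the table rather than its regions, and none is given here for any gene. The results below are therefore the number, class, order, spacing and size of the regions.

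T helper cells of the Th2 type make the cytokines IL-4, IL-5 and IL-13, which drive antibody class switching, eosinophil growth and mucus production. Their genes lie together, and Rad50, a DNA repair gene that sits between Il13 and Il5, holds in its introns near its 3' end the locus control region through which the cytokine genes are regulated together. GATA3 is the transcription factor that sets the Th2 fate, and Il1rl1 codes for ST2, the receptor of IL-33 on Th2 cells and regulatory T cells. In Th1 cultures IL-4 is neutralised and this programme is normally held back. Regulatory elements in the cluster are known to include sites near Il4 and between Il4 and Il13.

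RefSeq promoter sequences were held for 7 of the 8 genes, with 10 promoters among them. The 250 bases before the annotated start are printed for the cytokine genes, Gata3 and Il1rl1, because these carry the motif counts described next. They are of build GRCm38.p6, whereas the regions are of GRCm39, so the sequences are not placed within the regions. Capitals mark GGAAA, the core recognised by NFAT factors, and GATAA, the core recognised by GATA factors, on either strand (TTTCC and TTATC on the other one).
Il4 (GRCm38.p6, chr11:53618666-53618915, minus strand): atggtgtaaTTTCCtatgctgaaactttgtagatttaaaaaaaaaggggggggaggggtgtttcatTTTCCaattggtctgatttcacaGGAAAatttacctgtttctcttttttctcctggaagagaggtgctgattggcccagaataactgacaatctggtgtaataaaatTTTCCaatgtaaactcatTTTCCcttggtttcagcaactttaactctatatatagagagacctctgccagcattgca
Il13 (GRCm38.p6, chr11:53634703-53634952, minus strand): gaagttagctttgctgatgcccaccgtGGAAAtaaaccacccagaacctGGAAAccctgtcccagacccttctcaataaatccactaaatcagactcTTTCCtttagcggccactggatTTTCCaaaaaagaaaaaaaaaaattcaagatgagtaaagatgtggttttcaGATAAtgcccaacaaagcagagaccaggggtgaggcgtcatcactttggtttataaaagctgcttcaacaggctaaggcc
Il5 (GRCm38.p6, chr11:53720544-53720793, plus strand): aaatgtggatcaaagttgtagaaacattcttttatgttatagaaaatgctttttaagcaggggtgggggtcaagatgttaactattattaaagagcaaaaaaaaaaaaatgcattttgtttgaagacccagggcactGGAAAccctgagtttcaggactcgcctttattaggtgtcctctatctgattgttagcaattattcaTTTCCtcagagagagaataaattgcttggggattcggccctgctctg
Gata3 (GRCm38.p6, chr2:9878601-9878850, minus strand): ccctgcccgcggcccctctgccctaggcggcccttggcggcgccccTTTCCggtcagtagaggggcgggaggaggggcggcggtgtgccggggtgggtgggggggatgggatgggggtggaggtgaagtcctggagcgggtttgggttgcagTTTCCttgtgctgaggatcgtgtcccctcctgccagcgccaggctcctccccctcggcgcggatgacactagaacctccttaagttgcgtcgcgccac
Il1rl1 (GRCm38.p6, chr1:40429320-40429569, plus strand): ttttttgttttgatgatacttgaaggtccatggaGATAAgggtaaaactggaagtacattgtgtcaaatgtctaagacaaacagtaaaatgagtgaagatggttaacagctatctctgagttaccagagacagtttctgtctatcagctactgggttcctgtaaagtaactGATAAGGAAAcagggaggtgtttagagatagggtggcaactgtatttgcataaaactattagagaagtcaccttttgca

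RefSeq lists 2 promoters each for Il4, Irf1 and Il1rl1. The Il4 promoter printed, chosen for its motifs, held 5 copies of GGAAA in these 250 bases, and their first bases stood 241, 184, 161, 77 and 59 bases before the start. The other Il4 promoter, with a GC content of 52.8%, held 0 copies of either motif. At least 5 copies were found in 0.39% of all 32851 promoters over the same stretch. Il13 held 4 copies, at 223, 201, 153 and 131 bases before the start, a number reached by 1.59% of all promoters. Il5 and Gata3 held 2 copies each, which 21.4% of promoters reached, and each of the 2 Il1rl1 promoters held 1. NFAT factors carry the calcium signal of the T cell receptor to cytokine genes. The GC content was 37.6% at the Il4 promoter printed, 43.2% at Il13, 37.6% at Il5 and 70.0% at Gata3. At Il1rl1 it was 37.6% in the promoter printed and 46.4% in the other. The median over all promoters was 52.4% (quartiles 45.2 and 61.2). The promoters printed for Il4, Il5 and Il1rl1, each of 37.6%, held 5, 2 and 1 copies of GGAAA. The part of base composition in the motif counts was not tested.

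GATAA occurred 2 times in the Il1rl1 promoter printed, 216 and 79 bases before the start, and the nearer copy is followed directly by GGAAA. At least 2 copies were found in 4.28% of all promoters, and the other Il1rl1 promoter held 1. Il13 held 1 copy, 80 bases before the start, where 22.6% of promoters had at least 1. Both promoters of Il4 and those of Il5 and Gata3 had no GATAA in these 250 bases. Other forms of the GATA core, such as GATAG, were not counted. GATAG is present in the printed Il5 sequence, as CTATC, and in the Il4 promoter not printed. The lack of GATAA is therefore not a lack of GATA sites. Over the whole 300 bases of each promoter, which reach 50 bases past the start, GATAA was in 4 of the 10 promoters (1 of Il4, Il13 and both of Il1rl1), against 25.4% of all promoters, and GGAAA in 9 of 10, against 61.3%.

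E proteins, which Id3 holds in check, bind E-boxes. CAGCTG was in 2 of the 10 promoters over 300 bases (Gata3 and Irf1), against 16.3% of all, and CAGGTG in 0 of 10, against 20.2%. CACGTG was in 0 of 10, against 7.15%, and the AP-1 motif TGANTCA in 0 of 10, against 7.81%. The STAT motif TTCNNNGAA was in 2 (Il4 and Irf1), against 8.3%. The STAT6 motif, in which TTC and GAA stand 4 bases apart, was in 1 (Il4, 167 bases before the start, overlapping a GGAAA), against 6.95%. The T-box core TCACAC was in 1 (Kif3a), against 14.5%. All motifs were searched on both strands. With 10 promoters from 7 genes these are descriptions, and a missing motif says only that its letters are not in this window. Of the 2 Irf1 promoters, the one shown was chosen because it held both an E-box and a STAT motif before the start; the other held 0 of every motif searched in its 250 bases. Capitals mark CAGCTG, 139 bases before the start, and TTCNNNGAA, 90 bases before it, which overlaps a TTTCC.
Irf1 (GRCm38.p6, chr11:53769764-53770013, plus strand): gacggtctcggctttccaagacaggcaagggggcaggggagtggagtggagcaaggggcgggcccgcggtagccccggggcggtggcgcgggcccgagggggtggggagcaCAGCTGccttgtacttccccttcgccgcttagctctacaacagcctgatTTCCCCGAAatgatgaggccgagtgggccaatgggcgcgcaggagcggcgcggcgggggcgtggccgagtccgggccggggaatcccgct

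Along chromosome 11 (GRCm39) the 22 regions that name a cluster gene ran from 53457901 to 53661000, a stretch of 203100 bp. Their order was 6 regions of Kif3a, 1 shared by Kif3a and Il4, 2 of Il4, 4 of Il13, 6 of Rad50, 2 of Il5 and 1 of Irf1. By the deposited strands Kif3a, Il5 and Irf1 read from left to right, and Il4, Il13 and Rad50 from right to left. In 8 of the 22 regions the best class for a cluster gene was promoter, in 5 exon, in 6 intron and in 3 flanking. The class was taken in that order from the deposited codes, where a promoter code reached up to 3000 bp before an exon, and in places past the gene's start, and a flanking name up to 5000 bp from an exon.

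**Figure D1:**
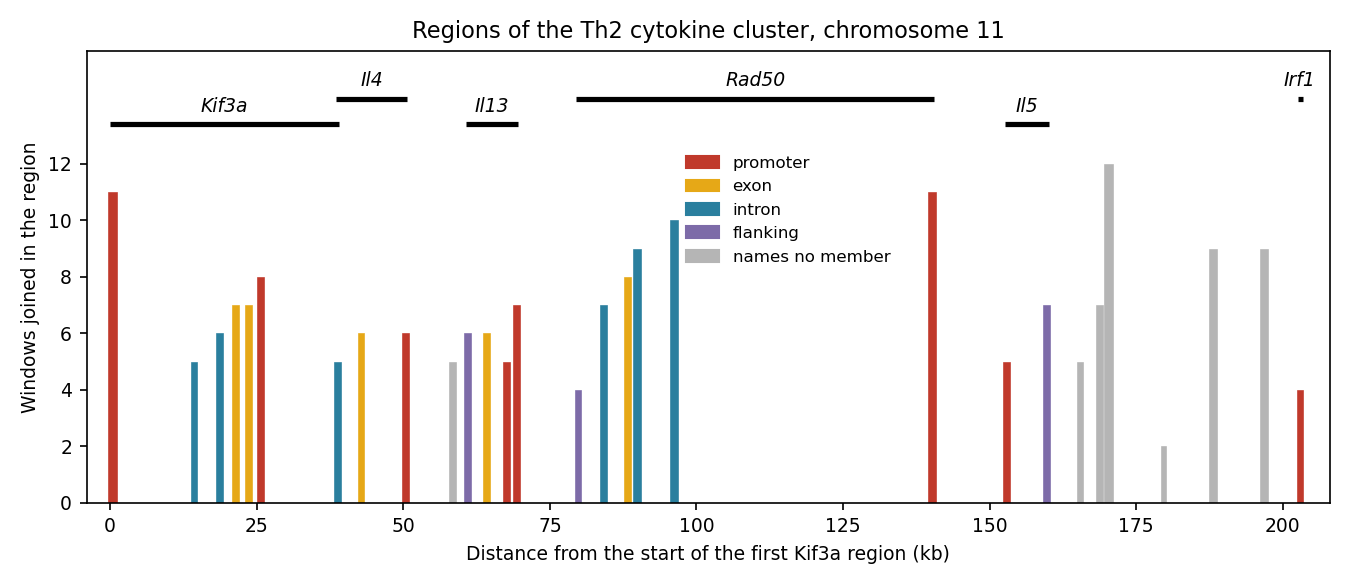
Regions along the Th2 cytokine cluster: the x axis is the distance in kb from the start of the first Kif3a region, the height is the number of windows joined in a region, colours give the class for the cluster gene, and grey regions name no cluster gene. Bars are drawn 0.6 kb wider than the regions so that they can be seen, and black lines span the outermost regions of each gene. The Rad50 regions lie at its left end and at its promoter with 43200 bp between them.

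Il4 was named by 3 regions. The promoter region (53507951 to 53508500) joined 6 windows over 550 bp and overlapped an Il4 exon. A further Il4 exon lay 497 bp to its right, on the 5' side of this leftward gene, so this region is not at the outermost exon listed. Neither Il4 promoter was placed against this region, and the one not printed held 0 copies of either motif. The motifs of the promoter printed above are therefore not assigned to the region. The second region (53500401 to 53500950) had 6 windows and covered the edge of an exon that begins 7 bp inside it. The third (53496451 to 53496950), of 5 windows, lay in an intron of 6421 bp between annotated Il4 exons. It was also 3657 bp from the nearest Kif3a exon, the only region that names 2 of the 8 genes. The annotation behind the table thus extends Il4 to 1193 bp from Kif3a. All 3 Il4 regions were 500 to 550 bp wide, beside a median of 550 bp over all regions.

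Il13 was named by 4 regions within 8850 bp, beside 3 within 12050 bp for Il4 and 2 within 7450 bp for Il5. A region of 5 windows (53525251 to 53525750) spanned the 5' edge of the gene: from the listed distances, 278 bp of it lay on the gene's side of that edge and 222 bp before it. A second promoter region, of 7 windows and 600 bp, stood 1322 bp upstream of the nearest Il13 exon. On the 3' side, 1 region of 6 windows overlapped an exon and 1 of 6 windows lay 3001 bp from the nearest Il13 exon. Between the Il4 promoter region and this last region was a region that named no gene (53516051 to 53516550, 5 windows), 7550 bp from the Il4 region and 2050 bp from the Il13 region.

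Il5, the eosinophil growth factor, was named by 2 regions, and neither overlapped an exon or intron of the gene. The first (53610501 to 53611000, 5 windows) lay within the promoter range and ended 621 bp before the first Il5 exon. The second (53617351 to 53617950, 7 windows) lay 1418 bp beyond an Il5 exon. The 4311 bp between those exon edges, which span the gene as the distances give it, held no region. Il5 differed in this from Il4 and Il13, each of which had 2 regions on an exon. Both Il5 regions also named ENSMUSG00000086595, an identifier with no symbol in the table.

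Rad50 codes for a subunit of the complex that senses and repairs DNA double-strand breaks. It was named by 6 regions, and 5 of them lay at the left end, the 3' side of this leftward gene. From left to right they held 4, 7, 8, 9 and 10 windows and were 450, 600, 650, 700 and 800 bp wide, so each was wider than the one before it. The first was outside the gene, 2496 bp from its nearest exon, and carried a promoter code for the pseudogene Rps2-ps4, although it lay 198 bp past an exon of that rightward gene. The next (53541701 to 53542300) lay in an intron of 1580 bp, the third (53545801 to 53546450) on an exon, and the last pair (53547451 to 53548150 and 53553651 to 53554450) in 1 intron of 12405 bp. The 4 regions inside the gene fell within 12750 bp.

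To the right of these Rad50 regions followed 43200 bp with no region of any gene, the largest gap in the interval. The gap ended at the Rad50 promoter region (53597651 to 53598450), which joined 11 windows over 800 bp. Over all regions the median gap between neighbours was 8900 bp (quartiles 3550 and 22450), and on chromosome 11 it was 7650 bp. The introns at the 3' end are where the locus control region of the cluster is known to lie. Whether the 4 regions are its hypersensitive sites was not tested, since no map of those sites in this build was used.

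Kif3a, a motor subunit of the kinesin that carries cargo into cilia, was named by 7 regions, as many as Il1rl1 and more than any other of the 8 genes. Its first promoter region (53457901 to 53458700) joined 11 windows over 800 bp and was shared with A430108G06Rik, which reads the other way. A second promoter code fell on an intronic region (53483251 to 53483900, 8 windows) that lay 301 bp before a Kif3a exon. The 4 regions between these 2 held 5, 6, 7 and 7 windows, 2 of them in introns and 2 on exons.

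Irf1, a transcription factor induced by interferons, was named by 1 region only (53660551 to 53661000). It overlapped an exon, joined 4 windows over 450 bp, and was shared with ENSMUSG00000091191. Among all promoter regions 15.9% had 4 windows or fewer, and 69.0% of all symbols were named by more than 1 region. The next region to the left, 5550 bp away, was on Mir7671 and joined 9 windows.

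Between the Il5 and Irf1 regions lay 42600 bp with 6 regions that named none of the 8 genes. They held 5, 7, 12, 2, 9 and 9 windows, and the one of 12 windows (53627751 to 53628700, 950 bp) was the widest of the 29 regions in the whole interval. Of the 6, 3 named ENSMUSG00000083986, 1 named Mir7671 and 2 named no gene. With these and the unnamed region beside Il4, the interval held 29 regions, or 14.3 per 100 kb. When all chromosomes were divided into 13056 stretches of the same length, the median stretch held 1 region and 0.628% held 29 or more. The interval was set by its own outer regions and the stretches were not, so the comparison favours the interval. The stretches were also not matched for the number of genes in them. Within 300 kb of the interval, 21 regions lay before it and 23 after it.

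Gata3 was named by 6 regions within 29150 bp on chromosome 2, all of them overlapping the gene or its promoter range. Gata3 reads from right to left, and its 2 regions nearest the 3' side were intronic. The first (9865501 to 9866100) joined 7 windows and lay in an intron of 4442 bp. The second (9871901 to 9872700) joined 11 windows over 800 bp and lay in an intron of 5542 bp. It was the widest at Gata3, wider than each of the 4 promoter regions of the gene.

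Those 4 promoter regions held 5, 1, 5 and 9 windows from left to right. The region of 1 window (9883201 to 9883500) overlapped a Gata3 exon, was 300 bp wide, the smallest width in the table, and was also in the promoter range of ENSMUSG00000025783. Regions of 1 window made up 3.81% of all regions and 2.82% of promoter regions. Its neighbours on either side (9880601 to 9881100 and 9884251 to 9884750) joined 5 windows each. Of the 2100 bp between the left neighbour and the 1-window region, 631 bp were bounded by Gata3 exon edges and held no region. The fourth (9893951 to 9894650, 9 windows) overlapped a Gata3 exon and an exon of 9230102O04Rik.

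**Figure D2:**
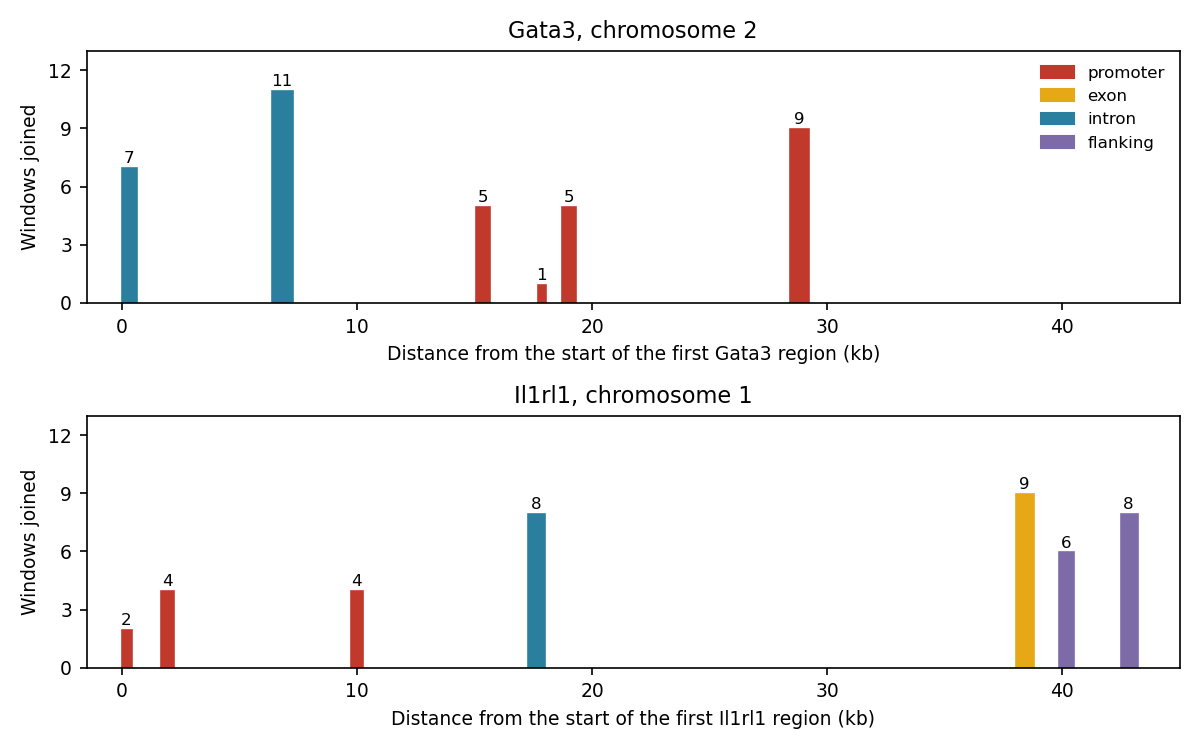
Regions at Gata3 (top) and Il1rl1 (bottom): the x axis is the distance in kb from the start of the first region of each gene along the chromosome, and the height and the number above each bar are the windows joined. Bars are drawn 0.12 kb wider than the regions. Gata3 reads from right to left and Il1rl1 from left to right; the widest Gata3 region is intronic (11 windows), and the first 3 Il1rl1 regions are the smallest of that gene.

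Il1rl1 was named by 7 regions within 43150 bp on chromosome 1. Its 3 promoter regions were the smallest of the gene, with 2, 4 and 4 windows. They stood at 40466451 to 40466800, 1930 bp before an exon, at 40468151 to 40468600, 130 bp before an exon, and at 40476201 to 40476650, in an intron. Over all promoter regions the median was 7 windows (quartiles 6 and 8). An intronic region (40483751 to 40484400) joined 8 windows, and 20100 bp without a region followed.

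The last 3 Il1rl1 regions also named Il18r1, which codes for a chain of the IL-18 receptor and is used by Th1 cells. The fifth region (40504501 to 40505200, 9 windows) covered the end of Il1rl1 and the start of Il18r1: the last Il1rl1 exon reached 74 bp into it, and its code for Il18r1 was promoter and exon. The sixth and seventh (6 and 8 windows) were Il18r1 introns that lay 1776 and 4376 bp past the same Il1rl1 exon. Without these 3, Il1rl1 was named by 4 regions, which held 2, 4, 4 and 8 windows.

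Across the 8 genes the number of regions was 3 for Il4, 4 for Il13, 2 for Il5, 6 for Rad50, 7 for Kif3a, 1 for Irf1, 6 for Gata3 and 7 for Il1rl1, a median of 5. The 19399 gene symbols in the table, each named by at least 1 region, had a median of 2 (quartiles 1 and 4). Among them 44.2% had at least as many regions as Il4, 27.3% as Il13, 69.0% as Il5, 12.5% as Rad50 or Gata3 and 9.33% as Kif3a or Il1rl1. A Th1 list of 8 genes had 3 to 17 regions per gene (median 6.5), with 4 at Ifng, the main Th1 cytokine, and 6 at Tbx21, the Th1 master factor. Il18r1 is on the Th1 list, and the 3 regions that name both it and Il1rl1 were counted for each gene. A Th17 list of 8 genes had 0 to 27 (median 3.5), with none naming Il17a or Il22. Gene length, which differs widely among these genes, was not taken into account, and no difference between the lists was tested.

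**Figure D3:**
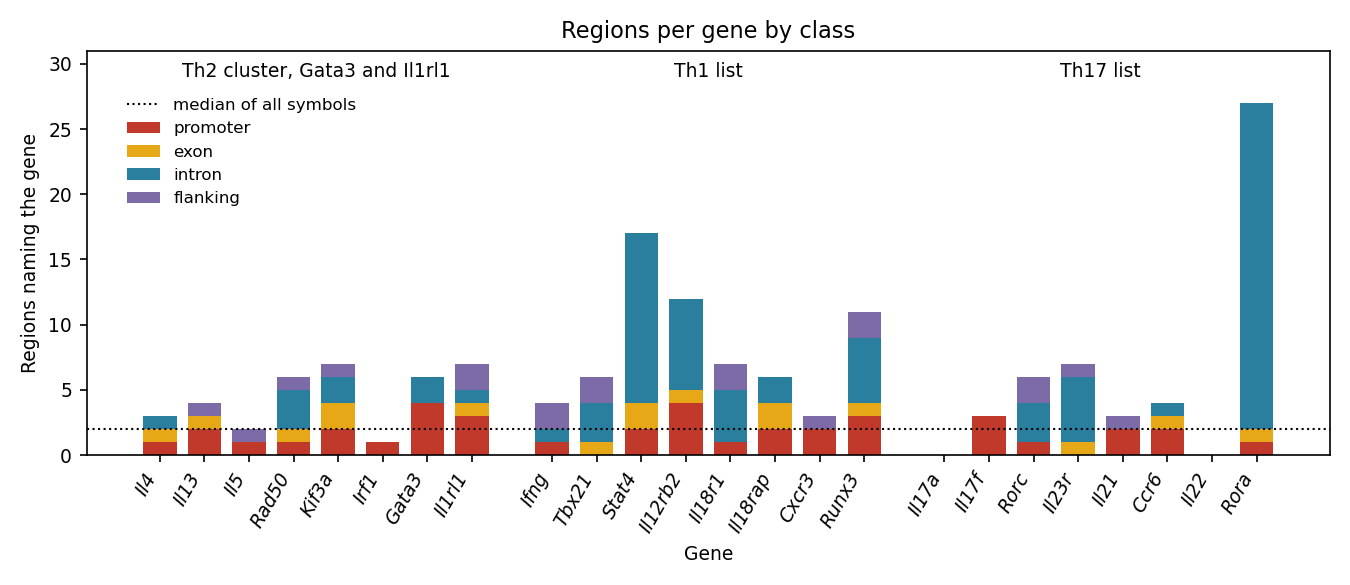
Number of regions naming each gene (y axis), stacked by class, for the 8 genes of the Th2 cluster, Gata3 and Il1rl1, then a Th1 and a Th17 list. The dotted line is the median of all symbols (2), and among the 8 genes only Irf1 lies below it. The 3 regions that name both Il1rl1 and Il18r1 are counted for each.

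By class, 15 of the 35 regions (42.9%) were promoter regions for the named gene, 6 (17.1%) exonic, 9 (25.7%) intronic and 5 (14.3%) flanking. With the class taken from any gene in the overlap, 51.4% were promoter regions, 14.3% exonic, 31.4% intronic and 2.86% flanking. Among the 53570 regions in the table that name any gene, 42.8% were promoter, 8.13% exonic, 40.2% intronic and 8.84% flanking, with the class taken from any gene. Only the shares by the class for any gene are of the same measure as these. By them the flanking share was 2.86% of only 35 regions, beside 8.84%, and a difference was not tested. The class for the 8 genes leaves out overlaps with other genes, which can only raise the flanking share. Its 14.3% is therefore not comparable with 8.84%. Another gene outside the 8 was named by 13 of the 35 regions, 8 such genes in all, of which 4 have a symbol: Il18r1, A430108G06Rik, Rps2-ps4 and 9230102O04Rik.

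The 35 regions joined 229 windows, a median of 6 per region (range 1 to 11), the same median as over all 65983 regions (quartiles 5 and 8). Their median width was also that of all regions, 550 bp. In 34 of the 35 the width was 300 bp for the first window and 50 bp for each further one, as in 97.8% of all regions, so width and window number carry nearly the same information. The 3 regions of 11 windows were the promoters of Rad50 and Kif3a and the Gata3 intron. A region of 11 or more windows occurred in 2.92% of all regions and in 6.1% of promoter regions. The promoter regions of the 3 cytokine genes held 5 to 7 windows and those of Il1rl1 and Irf1 2 to 4.

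**Figure D4:**
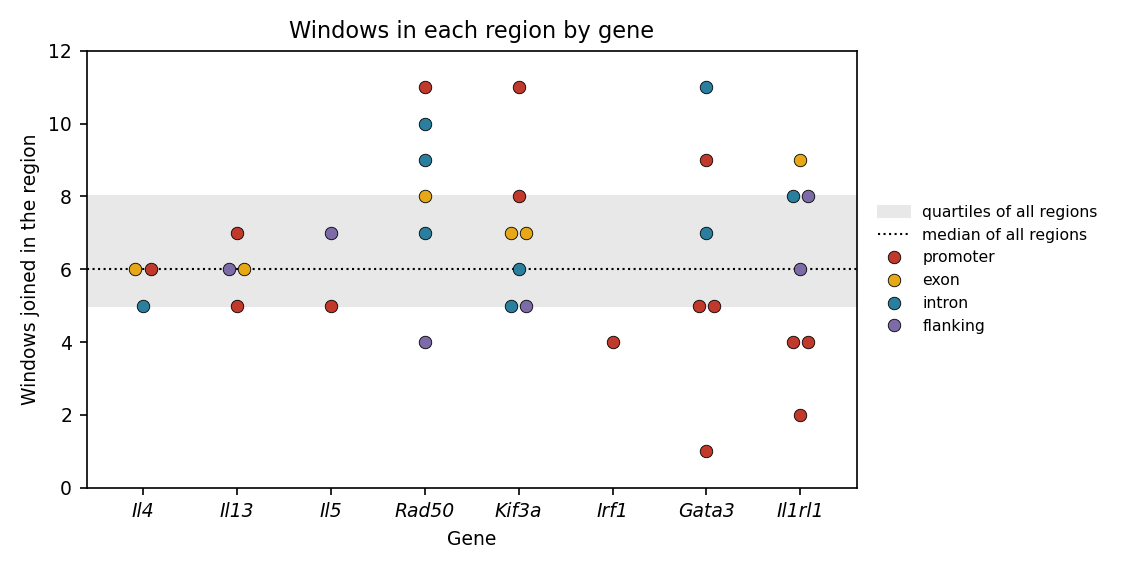
Windows joined in each region (y axis) for each of the 8 genes, with 1 point per region coloured by its class for that gene. The grey band spans the quartiles of all regions (5 and 8 windows) and the dotted line is their median (6). Il4, Il13 and Il5 points lie within the band, and points of 11 windows are at Rad50, Kif3a and Gata3.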

How the data were processed

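The deposited table lists 65983 regions 6 times, under 6 contrasts of the authors, in 395898 rows. The submitters' processing notes name Trim Galore, BWA, Picard, edgeR and the build GRCm39; how windows were counted, kept and joined is not stated there. Per the file headers, each region has a position, a width in bp, a number of windows, gene names with a class code or a distance, and a p-value and fold change per contrast. Positions, widths, window numbers and names were the same in all 6 contrasts, so the rows of 1 were used.

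The authors' deposited p-values served only to check the row order. A region's p-value over its number of windows never fell along the table (0 falls in each contrast, over regions with p below 1), so no p-value or fold change is given for a region.

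Names were matched exactly with Python 3.11.15 and pandas 2.3.3, and the parser was checked on simulated rows. Distances between exons were summed from listed distances, widths and gaps. The genes, the lists (other Th2 genes, Th1, Th17, cell type markers) and the settings were chosen with earlier results of these data known. All 8 genes are named, as are symbols that share their regions. No test was run, since no value per sample was held. Motifs were counted in 32851 RefSeq promoters of 300 bases (GRCm38.p6); Rad50 had no entry.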

Additional observations from a re-analysis of the deposited data

How the results depend on the processing

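No paired analysis was possible because values of single samples are missing from the table, and leaving out a replicate could not be run for the same reason. The motif share in regions, whole or central, was not run because no genome sequence was used, and promoters took their place. The 35 regions became 30 with overlapping names only, 32 with flanking names within 2000 bp and 34 with at least 2 windows. They were 35 after joining regions under 500 bp apart and in each of the other contrasts. Il5 was left with 1 region by overlap alone. The share of flanking regions was 2.86% by the class of any gene and 6.25% with flanking names within 2000 bp. Counting all regions in the cluster interval gave 29 in place of 22. The GATAA share was 30.0% of the 10 promoters in the 250 bases before the start, a setting chosen after the data were seen, and the TCACAC share was 0% there. Of 103 alternative values, 99 stayed within 1.5 times of a count or within the 95% binomial interval of a share or median. Many of the 99 could not have moved. The other contrasts list the same regions. The smallest gap in the 3 loci was 750 bp, so joining regions under 500 bp apart changed nothing. The 99 are therefore not a measure of stability. Depth limits could not be judged.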

Other observations

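Within 300 kb of the first Gata3 region, on its 3' side, lay 30 regions with a median of 6.5 windows, of which 24 named no gene. That first region is intronic, so the stretch began inside the gene. Within 300 kb of the last Gata3 region, on its 5' side, lay 18 regions, of which 1 named no gene. Of all 65983 regions, 12413 (18.8%) named no gene. The nearest region on the 3' side was 34600 bp from the first Gata3 region, and on the 5' side the next was 80300 bp from the last. In the mouse a T cell enhancer of Gata3 is known to lie far past its 3' end; whether any of these regions is that enhancer was not tested. Within 300 kb upstream of Il1rl1, 10 of 20 regions named no gene, and on its other side 1 of 16 did so. Within 100 kb the counts were 8 of 9 upstream and 0 of 10 on the other side.

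A list of 27 other genes was drawn up for the Th2 pathway and the neighbourhood of the cluster. Whether each listed gene, Ccni among them, belongs to either was not checked. All 27 were named by a region, 24 were overlapped by one in the gene or its promoter range and 23 had a promoter region. No share over all genes was computed for these counts, so they say nothing particular to the list. The median was 3 regions per gene (range 1 to 22), beside 2 over all symbols that a region names. Jak1, a kinase of cytokine receptors, had 22, of which 17 were intronic. Il4ra, the receptor chain of IL-4 and IL-13, had 6, and Stat6, the factor it activates, had 3. Maf, an activator of Il4, had 1 region of 4 windows. Il9, Il3 and Ccr8 were named by 2 flanking regions each and overlapped by none. Areg, a growth factor made by Th2 cells, had 1 promoter region of 11 windows.

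Among marker genes, 7 of 8 CD4 T cell markers were named by a region, all but Trac, with 7 regions at Cd4. Also named by a region were 3 of 4 B cell markers, 2 of 4 myeloid, 3 of 4 erythroid and 3 of 4 epithelial and liver markers. Only 2 of the 4 B cell markers were overlapped by one, since the 4 regions of Cd79a were all flanking. No share over all genes was computed for these counts. Ms4a1, Lyz2, Csf1r, Hbb-bt and Alb were named by none. Counts of regions do not measure how open a gene was, so these lists do not measure the purity of the cells.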
